A study of Mus musculus with 8 samples.

Results

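The 10 genes described here, Th, Ddc, Gch1, Slc6a3, Slc18a2, Nr4a2, Etv1, Pax6, Sall3 and Meis2, make, package or recapture dopamine in the periglomerular neurons of the mouse olfactory bulb or set the fate of these neurons. They were taken by name from the noncontrol probes of an 8-array data set and are 10 of 34797 gene names and 16 of 55681 probes. The RNA came from whole olfactory bulbs of 56-day-old C57BL/6J offspring. Dams entered a standard cage (C) or environmental enrichment (EE, a larger cage with a running wheel, a house and toys that were moved and exchanged) at gestational day 14, and the pups kept that housing after weaning at postnatal day 27. From postnatal day 28 to 55 they breathed clean air or diesel exhaust (DE) at 90 µg/m3 for 8 hours a day over 28 days. Standard cage mice in clean air are called C-C and those in diesel exhaust C-DE, and their enriched counterparts EE-C and EE-DE, and no transgene or deletion is named for any of them. The question was whether diesel exhaust changes gene expression in the bulb and whether rearing changes that response.

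Dopamine in the bulb is made by local interneurons around the glomeruli, where axons of olfactory sensory neurons meet mitral and tufted cells. Tyrosine hydroxylase (Th) turns tyrosine into L-DOPA, which is the rate-limiting step, and Dopa decarboxylase (Ddc) turns L-DOPA into dopamine. These neurons are renewed through adult life from neuroblasts of the subventricular zone, and Th in them is known to depend on odour-driven activity.

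For each group, RNA of the mice was combined into 1 pool, and the methods state that the pool was divided over 2 arrays. Values are log2 signals relative to the 75th percentile of the same array, and each difference between groups is given with the lowest and highest of the 4 values that its single arrays give when each is set against each. With 1 pool per group there is no estimate of the variation between mice, so no test was made and no p-value is given. A probe was counted as past the fold threshold at 1.5-fold, which is 0.58 on the log2 scale. All 17 spots of the 16 probes lay well above background on all 8 arrays, none was saturated, and all passed the filter that 21709 probes of 16484 genes passed. A gene is represented by its brightest probe unless another is named.

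The arrays were alike in scale, with 75th percentiles of 644 to 716 intensity units, and 68.0% to 70.6% of noncontrol spots were well above background on 7 of them. The first EE-DE array had 56.7%, with a median background of 29 units against 21 to 24 elsewhere. A single slide held all 8, the standard cage arrays in its first column and the enriched arrays in its second, so slide column and housing cannot be told apart. In both columns the clean air arrays lay in rows 1 and 2 and the diesel exhaust arrays in rows 3 and 4. Slide row and exposure therefore cannot be told apart either. Although the methods describe duplicate arrays of 1 pool, genes of the supporting cells of the olfactory mucosa differed between duplicates. Cyp2g1, a cytochrome P450 of these cells, read 1.44 and 0.44 on the C-C arrays and 1.27 and -0.79 on the EE-C arrays. The SD between duplicates was 0.068 to 0.098 over the member probes, against 0.108 to 0.167 over all 21709 probes. The median absolute difference between duplicates was 0.038 to 0.085 for member probes and 0.064 to 0.097 for all probes, and in C-C it was higher for the members, at 0.080 against 0.070.

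What the arrays read is fixed by their 60-base probes, and the letters are shown for the probes on which the later differences turn. The brighter Nr4a2 probe lies in coding sequence at chr2:56960699-56960758 on the minus strand of mm9, the build of the array design. The brighter Pax6 probe, at chr2:105536454-105536513 on the plus strand, ends with the last codons of the gene, and its stop codon is in capitals. The dimmer Pax6 probe, at chr2:105524098-105524949 on the plus strand, covers 852 bases of the genome with its 60 bases, so it crosses a splice junction, and its letters were read, from knowledge of the gene and with no annotation to check them against, as those of the alternative exon of the paired domain that only some Pax6 transcripts include.
Nr4a2, brighter probe: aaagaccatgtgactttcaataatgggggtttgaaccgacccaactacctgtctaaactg
Pax6, brighter probe: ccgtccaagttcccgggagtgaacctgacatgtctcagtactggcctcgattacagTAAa
Pax6, dimmer probe: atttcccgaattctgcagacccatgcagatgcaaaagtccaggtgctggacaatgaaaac

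The probes of Slc18a2 lie in the same stretch of chromosome 19 on the plus strand, at chr19:59370106-59370165 and chr19:59370153-59370212, and share 13 bases, in capitals in the last 30 bases of the brighter one and the first 30 of the dimmer one. They are shown because they gave different answers.
Slc18a2, brighter probe: gatcagcaaaggcatgcCTGTTACTGCTCT
Slc18a2, dimmer probe: CTGTTACTGCTCTccaaagaaaaaagaaaa

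The 250 bases upstream of the start of Th, at chr7:142899996-142900245 on the minus strand of GRCm38.p6 from RefSeq, are shown because this gene was the steadiest of the 10. They hold the cAMP response element TGACGTCA, in capitals, from 45 to 38 bases before the start.
Th, upstream: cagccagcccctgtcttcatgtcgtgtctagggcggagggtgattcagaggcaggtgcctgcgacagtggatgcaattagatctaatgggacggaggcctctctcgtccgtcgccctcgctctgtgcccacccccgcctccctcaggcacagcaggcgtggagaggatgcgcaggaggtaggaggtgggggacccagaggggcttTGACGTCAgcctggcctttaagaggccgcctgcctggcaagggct
The element reads the same on both strands. The 9 member genes in the RefSeq promoter table have 12 promoters there, from 250 bases before to 50 after a start. The element occurred in 3 of the 12 (1 each of Pax6, Slc18a2 and Th) and in 1.79% of 32851 promoters. AAAGGTCA, the element read by the nuclear receptor Nr4a2, was searched on both strands, was found in 1 of the 12, that of Ddc, and in 1.51% of all promoters. A match of letters is a description and shows no binding.

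Th was level across all groups. It read 5.49 and 5.46 on the C-C arrays, 5.44 and 5.51 on C-DE, 5.51 and 5.50 on EE-C, and 5.50 and 5.49 on EE-DE. The lowest and the highest of the 8 values both came from the C-DE pool, and no group stood outside the others. Diesel exhaust against clean air gave a log2 fold change of -0.00065 (-0.048 to 0.046) in standard cages and -0.0096 (-0.020 to 0.0013) in enrichment. EE-C/C-C gave 0.028 (0.010 to 0.045), the only one of the 5 comparisons in which the Th arrays did not overlap, and a rise of 1.95%. The SD of Th over the 8 arrays was 0.023, and 90 of 16484 genes had a smaller one, against a median of 0.079 over all genes. Th is a bright probe, and this rank was not set against genes of like brightness. In whole tissue fewer cells of a type and less RNA per cell cannot be told apart.

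The 5 genes whose profiles over the 8 arrays were most like that of Th were Tmem40, Uvrag, Polr1c, B230312A22Rik and Tm7sf2. Their root mean square difference from Th, with each profile centred on its own mean, was 0.0090 to 0.016, against a median of 0.077 over the other 16483 genes. The Th profile was almost flat, so these are flat profiles too. Of the other members, Meis2 came closest at 0.043 and ranked 1638th, and Nr4a2 was farthest at 0.125.

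Ddc read 1.10 and 1.01 on C-C, 1.04 and 1.16 on C-DE, 1.03 and 1.09 on EE-C, and 1.09 and 1.26 on EE-DE. The second EE-DE array was highest, the groups overlapped in every comparison, and EE-DE/EE-C was 0.12 (-0.00051 to 0.24). This probe carried a background outlier flag on 1 array. Where such flags are filtered too, the dimmer probe represents Ddc. The dimmer Ddc probe, in coding sequence, spanned -2.74 to -2.43 and lay lower in EE-C than in C-C by -0.11 (-0.18 to -0.037), where the brighter probe gave 0.0041 (-0.070 to 0.078).

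Gch1 encodes GTP cyclohydrolase, the first enzyme of the tetrahydrobiopterin that Th needs as cofactor. It read -0.96 and -1.12 on C-C, -1.09 and -1.12 on C-DE, -1.10 and -1.15 on EE-C, and -0.97 and -1.02 on EE-DE. Both EE-DE arrays lay above both EE-C arrays, by 0.13 (0.072 to 0.18), and above both C-DE arrays, by 0.11 (0.068 to 0.15), while the C-C arrays spanned nearly the whole range. The dimmer Gch1 probe gave -0.064 (-0.17 to 0.037) for EE-DE/EE-C, with overlap, and the mean of both probes gave 0.031.

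Slc6a3, the dopamine transporter that takes dopamine back up, read 0.93 and 0.92 on C-C, 0.94 and 0.93 on C-DE, 1.08 and 0.90 on EE-C, and 0.98 and 1.02 on EE-DE. The first EE-C array was highest and the second lowest of all 8, so that the EE-C pool spanned every other group. Both EE-DE arrays lay above the standard cage arrays, by 0.063 (0.040 to 0.086) against C-DE and 0.075 (0.047 to 0.10) against C-C. C-DE also stood apart from C-C, at 0.012 (0.0028 to 0.021).

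Slc18a2, the vesicular monoamine transporter that loads dopamine into vesicles, read -0.58 and -0.67 on C-C, -0.72 and -0.59 on C-DE, -0.66 and -0.65 on EE-C, and -0.77 and -0.66 on EE-DE. The groups overlapped in all 5 comparisons, and the largest difference was -0.089 (-0.19 to 0.013) for EE-DE/C-C. The dimmer probe, at 41.6 to 60.7 intensity units, read -3.83 and -3.54 on C-C, -3.70 and -3.67 on C-DE, -3.51 and -3.57 on EE-C, and -3.95 and -4.02 on EE-DE. Both EE-DE arrays were its lowest, and EE-DE/EE-C was -0.44 (-0.51 to -0.38), where the brighter probe gave -0.061 (-0.13 to 0.0055). With normexp background correction the dimmer probe gave -0.10, and it carried a background outlier flag on 3 arrays.

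Nr4a2, the nuclear receptor Nurr1 that takes part in the dopaminergic phenotype and is also switched on by neuronal activity, gave the largest of the 50 differences (10 genes in 5 comparisons). It read 1.73 and 1.84 on C-C, 1.79 and 1.77 on C-DE, 2.03 and 1.91 on EE-C, and 2.15 and 1.91 on EE-DE. All 4 enriched arrays lay above all 4 standard cage arrays, with a mean difference of 0.22 and single differences from 0.068 to 0.42. EE-DE/C-DE was 0.25 (0.12 to 0.38), a rise of 18.8%, and EE-C/C-C was 0.19 (0.068 to 0.30). Diesel exhaust gave -0.0010 (-0.065 to 0.063) in standard cages and 0.061 (-0.12 to 0.24) in enrichment.

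The dimmer Nr4a2 probe, at chr2:56959637-56959696, read 0.29 and 0.57 on C-C, 0.37 and 0.35 on C-DE, 0.58 and 0.67 on EE-C, and 0.68 and 0.49 on EE-DE. Its mean difference by housing was 0.21, but the second C-C array lay above the second EE-DE array, so housing did not separate its arrays. The 100 passing spots nearest to the brighter probe read 0.19 above their own means on the first EE-C array and -0.066 on the second. With each spot centred on these neighbours the brighter probe gave 0.18 by housing, with overlap, and with normexp background correction 0.067, also with overlap, and EE-C/C-C turned to -0.034. The part of slide position in the Nr4a2 difference was not tested.

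Etv1, the ETS factor Er81 expressed in dopaminergic and other bulb interneurons, went the other way with less spread. It read 5.19 and 5.16 on C-C, 5.13 and 5.14 on C-DE, 5.02 and 5.04 on EE-C, and 5.04 and 5.04 on EE-DE. All 4 enriched arrays lay below all 4 standard cage arrays, by 0.086 to 0.16, with a mean log2 difference of -0.12, so that the signal fell by 7.72%. EE-C/C-C was -0.14 (-0.16 to -0.12) and EE-DE/C-DE was -0.091 (-0.096 to -0.086). The neighbouring spots of this probe deviated by at most 0.045 on any array, and the arrays stayed apart after centring on them and after normexp correction. The dimmer Etv1 probe overlapped between housings, with a mean difference of -0.046.

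In the comparison of 4 enriched with 4 standard cage arrays, 2 of the 10 genes did not overlap, Nr4a2 higher and Etv1 lower. The background was 7.72% of all 16484 genes, 4.4% higher and 3.32% lower. With 10 genes, 2 against 7.72% is a count too small to set the members apart from the rest. In the comparison of the 4 diesel exhaust with the 4 clean air arrays no member gene stood apart, against 4.94% of all genes.

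**Figure D1:**
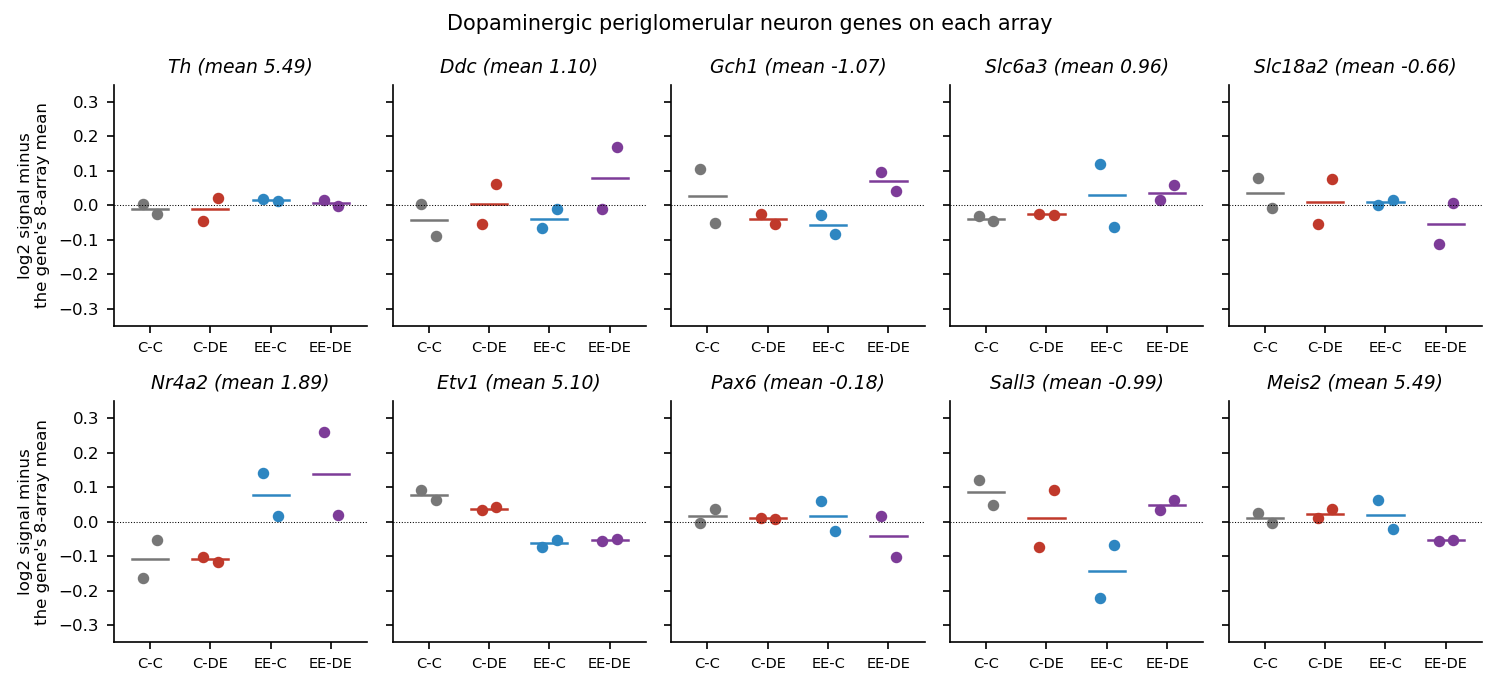
Log2 signal of the representative probe of each of the 10 genes on the 8 arrays, as a deviation from the gene's own mean over the arrays (given in each title); each point is 1 array, 2 for each group, and the bar is their mean. Th stays within 0.065 from its lowest to its highest array, Nr4a2 lies higher and Etv1 lower on all 4 enriched arrays.

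Pax6, the paired and homeodomain factor required for dopaminergic periglomerular fate, read -0.18 and -0.14 on C-C, -0.17 and -0.17 on C-DE, -0.12 and -0.20 on EE-C, and -0.16 and -0.28 on EE-DE with its brighter probe, which has 2 spots. The groups overlapped in all 5 comparisons, and differences were between -0.060 and -0.00089.

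The dimmer Pax6 probe, which crosses the splice junction, separated the exposures. It read -3.46 and -3.52 on C-C, -3.68 and -3.63 on C-DE, -3.30 and -3.28 on EE-C, and -3.59 and -3.62 on EE-DE. All 4 diesel exhaust arrays lay below all 4 clean air arrays, C-DE/C-C was -0.17 (-0.22 to -0.12) and EE-DE/EE-C was -0.32 (-0.34 to -0.29), so that the signal fell by 11.1% and fell by 19.7%. It was the only one of the 16 member probes whose 4 exposed arrays did not overlap the 4 unexposed, against 4.84% of all 21709 probes. With 16 probes this count is near the background and too small to set the member probes apart from the rest. The probe is dim, at 50.2 to 71.6 intensity units. Its arrays overlapped after centring on neighbouring spots, with a gap of -0.0052 at a difference of -0.24, and after normexp correction, at -0.065.

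**Figure D2:**
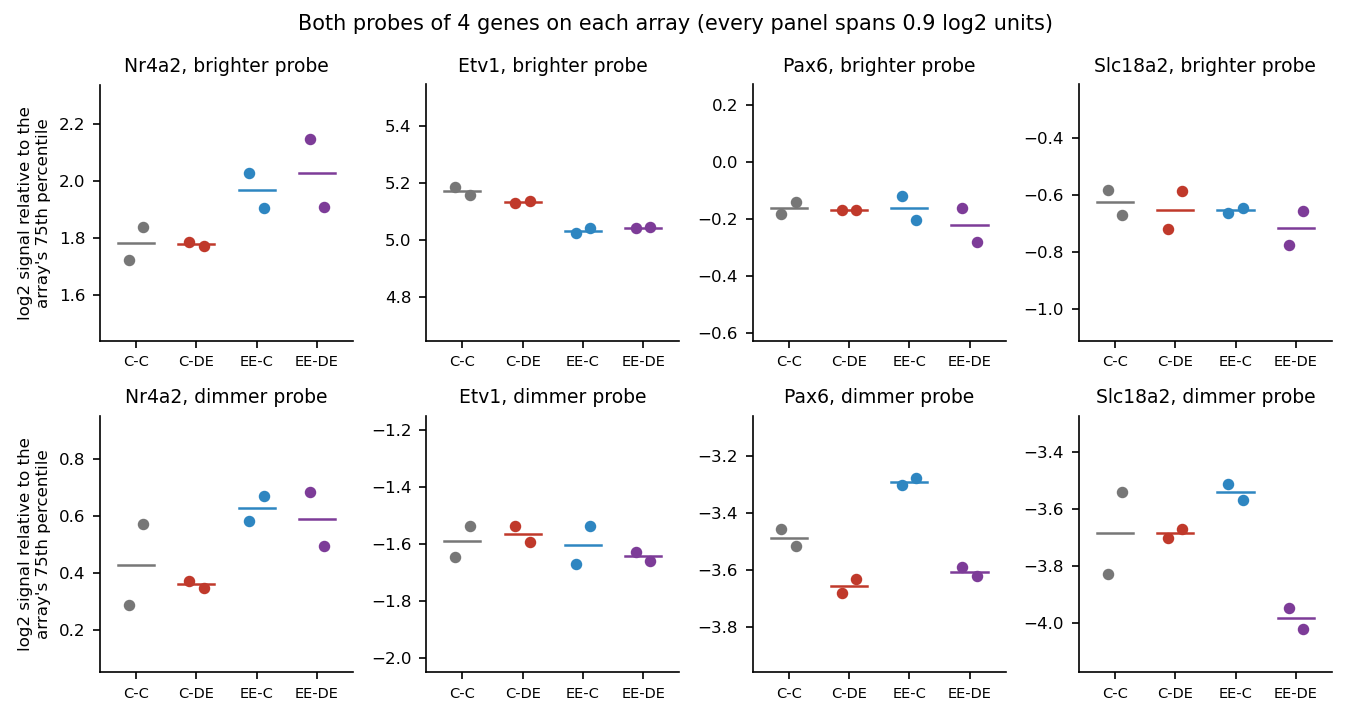
Log2 signal relative to the array's 75th percentile for both probes of Nr4a2, Etv1, Pax6 and Slc18a2; points are the 2 arrays of each group, bars their mean, and every panel spans 0.9 log2 units. Both Nr4a2 probes have higher means in the enriched groups, while the dimmer Pax6 and Slc18a2 probes move in ways that their brighter probes do not.

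Sall3, a zinc finger factor needed for Th expression in the bulb, had the largest difference between housings in its exposure effect. It read -0.86 and -0.94 on C-C, -1.06 and -0.89 on C-DE, -1.21 and -1.05 on EE-C, and -0.95 and -0.92 on EE-DE. The EE-C arrays lay below both C-C arrays, by -0.23 (-0.34 to -0.12), and below both EE-DE arrays, which gave 0.19 (0.10 to 0.28) for EE-DE/EE-C. In standard cages diesel exhaust gave -0.075 (-0.19 to 0.045), with overlap, and the effect in enrichment minus that in standard cages was 0.27 (0.056 to 0.48). The dimmer Slc18a2 probe gave a larger difference between housings, at -0.44 (-0.66 to -0.22).

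Meis2, a TALE homeodomain partner of Pax6, read 5.51 and 5.48 on C-C, 5.50 and 5.52 on C-DE, 5.55 and 5.47 on EE-C, and 5.43 and 5.43 on EE-DE. The EE-DE arrays were the lowest and lay apart from each other group, by -0.064 (-0.079 to -0.049) against C-C, -0.078 (-0.091 to -0.064) against C-DE and -0.075 (-0.12 to -0.032) against EE-C.

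Over the 10 genes, diesel exhaust in standard cages (C-DE/C-C) gave a median log2 fold change of -0.0040, against -0.0083 over all 16484 genes. No member passed 1.5-fold, where 0.649% of all genes did. The arrays did not overlap for 2 of 10, Slc6a3 and Etv1, against 41.2% of all genes. In enrichment (EE-DE/EE-C) the median was 0.0088, no member passed 1.5-fold against 0.952% of all genes, and 3 of 10 (Gch1, Sall3 and Meis2) did not overlap against 34.7%. These counts were no higher than the background in either housing.

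Enrichment under clean air (EE-C/C-C) gave a median of 0.0016, no member past 1.5-fold against 0.831% of all genes, and 4 of 10 without overlap (Th, Nr4a2, Etv1 and Sall3) against 38.2%. Enrichment under diesel exhaust (EE-DE/C-DE) gave a median of 0.029, none past 1.5-fold against 0.74%, and 5 of 10 without overlap (Gch1, Slc6a3, Nr4a2, Etv1 and Meis2) against 42.5%. EE-DE/C-C gave a median of -0.0090, none past 1.5-fold against 0.928%, and 4 of 10 without overlap (Slc6a3, Nr4a2, Etv1 and Meis2) against 47.6%. The comparisons share pools, so their values are not independent. A count of 0 in 10 is near these backgrounds, and the shares without overlap were near theirs.

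Of the 50 values, 39 were under 0.1 in size, 47 were under 0.2 and the largest was 0.25. No single pairing of arrays took any of the 16 probes past 1.5-fold. The exposure effect in enrichment minus that in standard cages had a median of 0.022 over the brightest probes of the 10 genes. It ran from -0.088 for Meis2 to 0.27 for Sall3, and was past 1.5-fold for 0 of 10 genes and 250 of 16484.

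**Figure D3:**
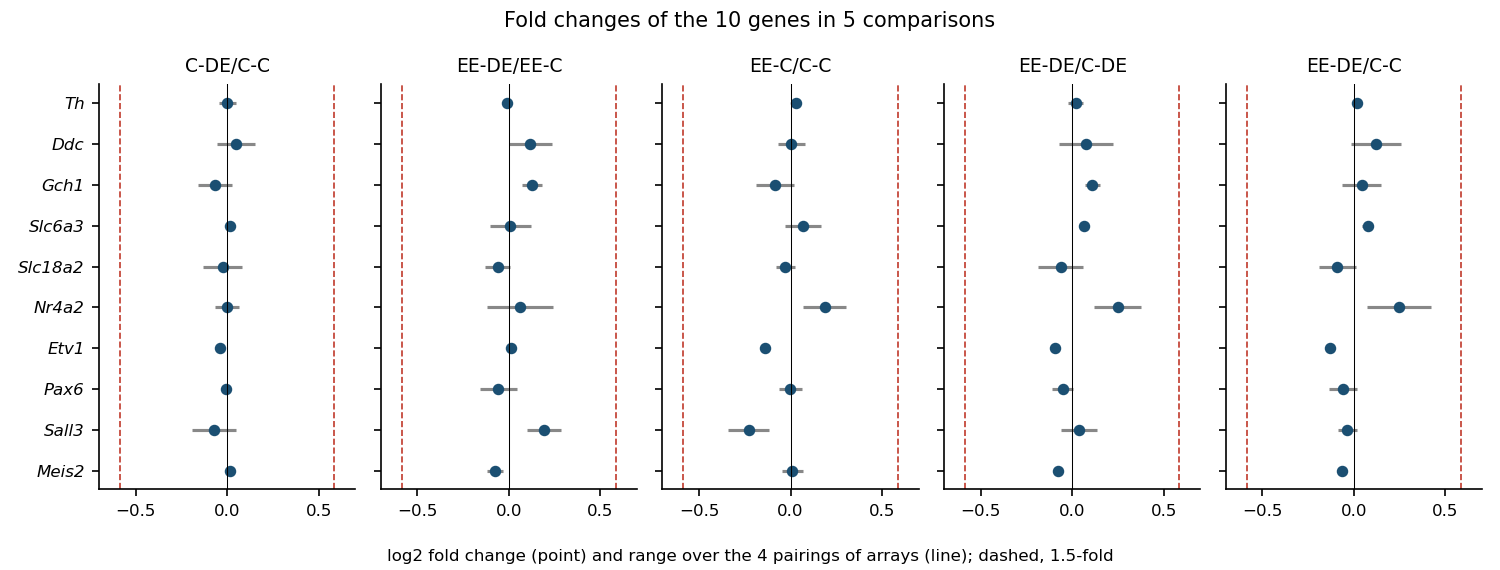
Log2 fold changes of the 10 genes in the 5 comparisons (points) with their range over the 4 array pairings (lines); dashed lines mark 1.5-fold. Every range stays between the dashed lines, and the values farthest from 0 are those of Nr4a2 and Sall3.

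The lists of other genes were read in the same way. The 5 genes of the biopterin cofactor (Gchfr, Pts, Spr, Qdpr and Pcbd1) had 0 of 5 past 1.5-fold in each comparison and a median of 0.11 for EE-C/C-C. In EE-C/C-C, EE-DE/C-DE and EE-DE/C-C 3 of 5 were apart and higher, against 21%, 22% and 22.7% of all genes. In EE-DE/EE-C 1 was higher, against 14.4%. In C-DE/C-C 1 was higher and 2 were lower, against 18.2% and 23%. Gchfr, the feedback regulator of GTP cyclohydrolase, read -1.48 and -1.50 on C-C, -1.54 and -1.81 on C-DE, -1.36 and -1.39 on EE-C, and -1.43 and -1.23 on EE-DE. Its enriched arrays all lay above its standard cage arrays, with a mean difference of 0.23, and it was the 1 of the 5 genes apart in this direction, against 4.4% of all genes. Of the genes of dopamine breakdown, Maoa, Maob, Aldh1a1 and Aldh2 were read and none of them passed 1.5-fold, and their values lay between -0.10 and 0.13 in the 5 comparisons.

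Drd1a, Drd2 and Drd5 were the dopamine receptors that passed the filter, Drd3 and Drd4 were not well above background on all arrays, and none passed 1.5-fold. Of genes that mark other monoamine neurons, Slc6a2, Slc6a4, Tph2 and Slc18a1 did not pass the filter, and Dbh and Pnmt did, at -3.26 to -2.91 and -4.08 to -3.51. Of 8 factors that mark midbrain dopamine neurons, Foxa1, Foxa2, Lmx1a, Pitx3 and En1 did not pass the filter, and Lmx1b, En2 and Otx2 did, with none past 1.5-fold. Of 18 fate factors of bulb interneurons 17 passed the filter and none moved 1.5-fold. EE-DE/C-DE was apart for 3 of them higher and 11 lower, with a median of -0.075, against 22% of all genes higher and 20.5% lower. For C-DE/C-C 5 were apart higher and 5 lower, against 18.2% and 23% of all genes. For EE-DE/EE-C 1 was higher and 2 were lower, against 14.4% and 20.3%. For EE-C/C-C 0 were higher and 7 lower, against 21% and 17.1%, and for EE-DE/C-C 1 was higher and 7 were lower, against 22.7% and 24.9%. The 4 enriched against the 4 standard cage arrays gave 0 higher and 2 lower, against 4.4% and 3.32%.

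Activity-dependent genes, among them Fos, Egr1, Arc and Nr4a1, had 9 of 10 members past the filter, none past 1.5-fold, and a median of 0.12 both for the 4 enriched against the 4 standard cage arrays and for the 4 diesel exhaust against the 4 clean air arrays. None of the 9 stood apart in either grouping, against 7.72% of all genes by housing and 4.94% by exposure, so the count is near the background. Nr4a1, the closest relative of Nr4a2 in that list, read 5.24 and 5.12 on C-C, 5.07 and 5.24 on C-DE, 5.00 and 5.58 on EE-C, and 5.73 and 5.20 on EE-DE. It was highest on the first EE-DE array, as were Fos at 1.76 and Nr4a2 at 2.15, and lowest on the first EE-C array, where Nr4a2 was at 2.03.

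The labelled tissue showed its markers. The GABA and periglomerular genes Gad1, Gad2, Slc32a1 and Calb2 passed the filter, and Calb1 did not. Their summed signal, in multiples of the array's 75th percentile, was 218 to 221 on the standard cage arrays and 203 to 214 on the enriched arrays. Of the 4 genes, 1 (Gad2, a GABA-synthesising enzyme) was lower on every enriched array than on every standard cage array, against 3.32% of all genes.

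Genes of the nasal mucosa moved far more than the member genes did. All 7 supporting cell genes of the mucosa (Cyp2g1, Cyp2f2, Ugt2a1, Krt8, Krt18, Cbr2 and Sec14l3) were past 1.5-fold lower in C-DE/C-C, with a median of -1.25, against 0.491% of all genes, and higher in EE-DE/C-DE, with a median of 1.70, against 0.649%. In the other comparisons fewer passed and no gene's arrays were apart, with 5 of 7 higher for EE-DE/EE-C (0.631% of all genes), 2 of 7 lower for EE-C/C-C (0.558%) and 2 of 7 higher for EE-DE/C-C (0.516%). Their summed signal was 7.02 to 12.1 in C-C, 3.67 to 4.62 in C-DE, 4.34 to 11.5 in EE-C and 10.0 to 16.3 in EE-DE. Over the same arrays the summed signal of Th, Ddc and Gch1 stayed between 46.0 and 48.2 and that of Slc6a3 and Slc18a2 between 2.51 and 2.75. Of 8 genes of olfactory sensory neurons 7 passed the filter. Their median log2 difference was -0.20 for C-DE/C-C and 0.21 for EE-DE/C-DE, and for the latter 6 of the 7 were apart and higher, against 22% of all genes. For C-DE/C-C 3 were apart and lower, against 23%. For EE-DE/EE-C 2 were higher, against 14.4%, and for EE-C/C-C 1 was higher, against 21%. For EE-DE/C-C 1 was lower, against 24.9%. Cnga4, a channel subunit, was past 1.5-fold, at -0.95 for C-DE/C-C, 0.72 for EE-DE/EE-C and 1.26 for EE-DE/C-DE. Omp, the mature marker, ran from 5.81 to 6.15 over the 8 arrays. It gave -0.13 (-0.34 to 0.091) for C-DE/C-C and 0.20 (0.069 to 0.33) for EE-DE/C-DE. Whether mucosal RNA has a part in the small differences of the members was not tested.

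**Figure D4:**
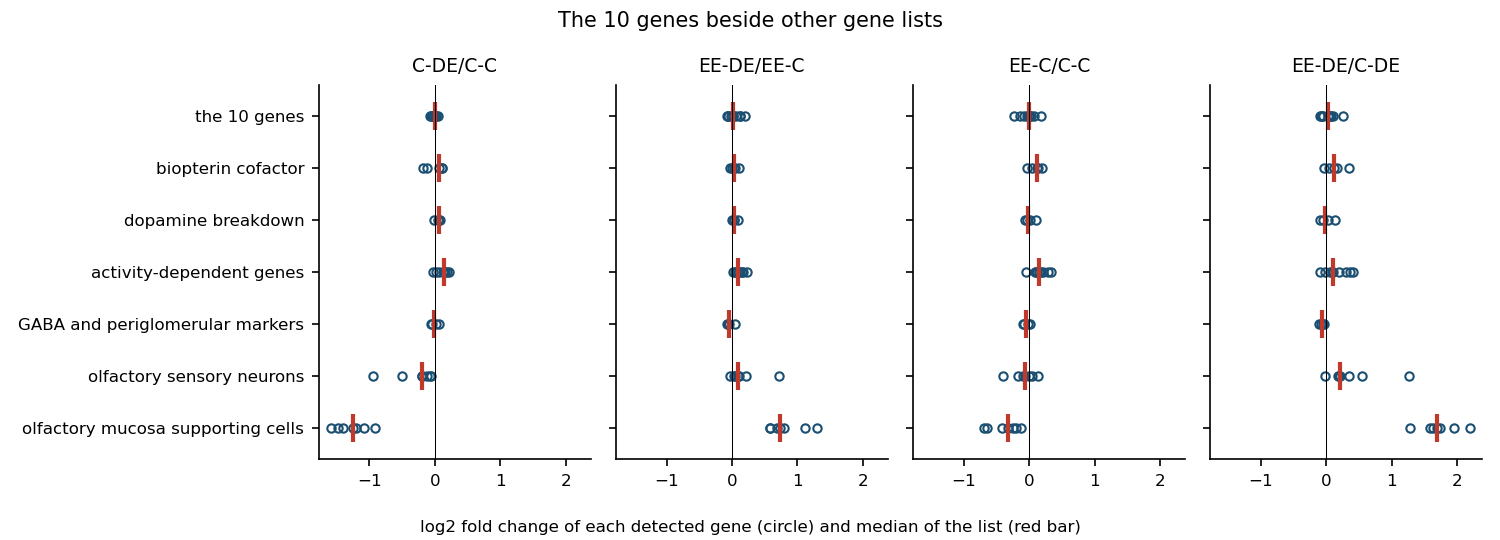
Log2 fold change of each detected gene (circles) and the median (red bar) for the 10 genes and 6 other lists for exposure in each housing (left) and for housing in each exposure (right). The 10 genes lie within 0.25 of 0 in all 4 panels, while the supporting cell genes have medians of -1.25, 0.74, -0.32 and 1.70 from left to right.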

How the data were processed

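Gene expression was measured on 8 one-colour Agilent 8x60K mouse arrays of olfactory bulb RNA, 2 arrays for each of 4 pools. The authors deposited scanner intensity files of Agilent Feature Extraction 10.7.3.1, the version in the submitters' processing notes. A fitted spatial surface had been subtracted as background (it equals the background used on 100% of spots), with no scaling across arrays. A deposited series table holds log2 values made by the authors, used as an alternative. They lay within 0.02 of the values used here on all arrays for 99.4% of 21709 probes, after each probe was centred on its median. Their centring is inferred from that fit.

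Each signal was divided by the 75th percentile of noncontrol spots of its array and log2 transformed. Spots were kept when they carried a GenBank or RefSeq accession, lay well above background on every array and had no feature outlier flag. Leaving background outlier flags out of this filter was decided after member values had been seen, and the filter with them is an alternative. Spots of a probe were averaged, and the probe with the highest mean signal represented its gene. All 16 member probes carried the same symbol in a later RefSeq table. Groups came from the sample labels. Errors are ranges over the 4 pairings of arrays, which reflect the arrays only. Probe coordinates are those of the files on mm9. Which probes lie in coding sequence, and the exon of the dimmer Pax6 probe, were read from their letters and not taken from an annotation.

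The member genes and the gene lists were chosen with earlier results of these data known. All member genes and their probes are named. From the other lists, genes are named that define a cell type beside a result or passed 1.5-fold in all pairings, and for Th the 5 genes nearest in profile. Gchfr, Gad2, Cnga4, Nr4a1, Fos and Omp were named after their values were seen. The comparisons of 4 with 4 arrays, the neighbouring spots and the motifs were also chosen after seeing the data. A gene of the breakdown list is not reported here. Alternatives changed 1 choice at a time. Normexp (offset 50) and quantile normalization used limma 3.58.1 in R 4.3.3, and all else Python 3.11.15 with numpy 2.4.6, pandas 2.3.3 and matplotlib 3.10.9.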

Additional observations from a re-analysis of the deposited data

Results flagged for a closer look

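No probe of the 10 genes had diesel exhaust effects of opposite direction in the 2 housings on every pairing of arrays. Among the 108 probes of the members and the other lists, 3 did, and 4.22% of all 16484 genes did. The difference between housings was not tested for any of them. Nr2f2, a fate factor of bulb interneurons, had an effect of -0.14 in standard cages and 0.19 in enrichment, a difference of 0.33. Gad1, an enzyme of GABA synthesis, had 0.056 and -0.041, a difference of -0.097. Cnga4, a channel subunit of olfactory sensory neurons, had -0.95 and 0.72, a difference of 1.67, and the mucosal supporting cell genes moved on the same arrays.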

How the results depend on the processing

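Under 14 alternatives and with each array left out, no member gene passed 1.5-fold in any of the 5 comparisons, and 0 of 1777 values of single genes or probes did, the largest being 0.48 in size for the dimmer Slc18a2 probe. Of 230 counts and medians under these settings, 10 moved, the medians by more than their spread between arrays and the counts by over 1.5 times. The EE-DE/EE-C median was 0.028 with quantile normalization. With background outlier flags also filtered, a setting added after seeing the data, the EE-DE/C-DE median went from 0.029 to -0.017, the EE-C/C-C median from 0.0016 to -0.014 and the EE-DE/C-C median from -0.0090 to -0.043. These shifts were within the spread and did not count as moved. With single arrays left out the EE-DE/EE-C median ran from -0.0068 (without the second EE-C array) to 0.045 (without the first), and both values counted as moved. The EE-C/C-C median ran from -0.028 (without the first EE-C array, moved) to 0.020. The EE-DE/C-DE median ran from -0.029 (without the first C-DE array, moved) to 0.056. Within their spread, the C-DE/C-C median ran from -0.023 to 0.012 and the EE-DE/C-C median from -0.037 to 0.017. The median difference between housings ran from -0.0059 to 0.042, also within its spread. With normexp correction the C-DE/C-C median was -0.030. With the mean of all passing probes the EE-DE/C-DE median was 9.2e-05 and the median difference between housings -0.0061. These values did not count as moved. The count of member genes apart by housing moved to 1 (Etv1 alone) with normexp correction, with the mean of all passing probes and with centring on neighbouring spots. It ran from 2 to 3 with single arrays left out, which did not count as moved. The count apart by exposure moved from 0 to 1 (Pax6) with the mean of all passing probes. It was 0 to 1 with single arrays left out, the 1, which also counted as moved, being Slc6a3 without the first EE-C array. The causes were not tested. No paired analysis was possible because the shared array numbers mark duplicate arrays of 1 pool and no test was made. Low signal limits the dimmer probes of Ddc, Gch1, Pax6 and Slc18a2, and with 2 arrays of 1 pool a difference between conditions cannot be set against the variation between mice.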
